A study of Mus musculus with 62 samples.

Results

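Pu.1 binding was compared between Daxx-KO and WT haematopoietic stem and progenitor cells (HSPCs) at 24 weeks post-induction (w.p.i.), in every autosomal region that the authors' window test listed as differing between the 2 genotypes. The table holds 253825 such sites, out of 1148497 sites in the 6 tables read here. The Daxx-KO libraries, 1 and 2, came from mice with both Daxx alleles floxed (Daxx F/F) and the WT libraries, 1 and 2, from mice with 2 intact alleles (Daxx +/+). Both groups are labelled as having 1 copy of Cre (Cre +/-), were C57BL/6 and gave bone marrow cells depleted of lineage-positive cells and selected for c-Kit, and the protocol induced the Mx1Cre transgene with pI:pC in both. Mx1Cre is not restricted to stem cells or to blood. Each library is from 1 mouse, the series has 62 libraries in all, and Pu.1 was profiled by CUT&Tag, in which an antibody brings a transposase to the protein so that the DNA beside it is tagged and sequenced.

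Pu.1, the product of Spi1, is an ETS-family transcription factor that binds sequences with a GGAA core, often GAGGAAGT. It is needed for myeloid and B-lymphoid development, and its dose steers the choice between macrophage, neutrophil, lymphoid and erythroid fates. Daxx is a chaperone that, with Atrx, deposits the histone variant H3.3 in heterochromatin and at repeats, and it also acts in the repression of transcription.

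A site was called gained where the lower Daxx-KO value exceeded the higher WT value, and lost in the reverse case. By that rule 119159 sites were gained, 46.9% of those listed, and 130219 were lost, 51.3%, while 4447 (1.75%) were neither. These percentages describe sites that had been selected for a difference, and with 2 libraries per group the smallest p of an exact two-sided permutation test is 0.333, so no site was tested again. The values are normalized counts, which the authors made by dividing the reads in a site by a constant for the library. At gained sites the median was 58.6 and 58.5 in Daxx-KO 1 and 2 and 7.20 and 10.5 in WT 1 and 2. At lost sites it was 5.45 and 7.31 in Daxx-KO against 54.7 and 54.7 in WT. Gains and losses were thus of like size, with a median log2 ratio of 2.60 for gains and -2.77 for losses. In 6363 gained sites both WT libraries were listed at 0, and in 8695 lost sites both Daxx-KO libraries were.

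The 4 libraries were of unequal depth, with 9.42 and 6.86 reads per 600-bp window in Daxx-KO against 4.75 and 7.99 in WT, and no library totals are given. At 24 w.p.i. WT 1 stood apart at the promoter of Mx1, the interferon-induced gene whose promoter drives Cre in the Mx1Cre transgene. H3K27me3, the Polycomb mark, was listed there on chromosome 16 from 97462451 to 97463350 at 2521 and 2311 in Daxx-KO, at 2566 in WT 2 and at 71.0 in WT 1. A second H3K27me3 site, from 97464551 to 97465900, held 2427 and 2306 in Daxx-KO, 1895 in WT 2 and 20.5 in WT 1. All 4 mice are labelled Cre +/-, the driver is known from the study's methods and not from the labels, and whether WT 1 carries the transgene as labelled was not tested. Results at Mx1 are therefore given with every library apart.

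For 3 gained and 3 lost sites that carry GAGGAAGT anywhere in the site, the word and the 40 bases on either side of it are given. Of 120 named sites considered, 11 held the word. Of the sites printed, those of Cxcl12 and Il1b alone hold it in the 300 bp around the middle, where words are counted below. They have the largest gaps between the groups among the named sites with this word, and they show that the same Pu.1 word lay in sites of both directions. Sequences are from mm10, 5′ to 3′ on the strand of the word, whose bases are in capitals. The gained examples lie near Megf6 (chr4:154248619-154248706, minus strand), 225.7 kb upstream of the chemokine gene Cxcl12 (chr6:116942881-116942968, plus strand) and 91.0 kb downstream of the Mycn start (chr12:12848818-12848905, plus strand).
Megf6: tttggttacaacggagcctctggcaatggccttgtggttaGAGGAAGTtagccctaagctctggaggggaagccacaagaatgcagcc
Cxcl12: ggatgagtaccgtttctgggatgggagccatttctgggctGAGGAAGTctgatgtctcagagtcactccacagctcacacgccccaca
Mycn: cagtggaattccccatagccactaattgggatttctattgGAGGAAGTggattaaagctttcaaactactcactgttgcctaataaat
The lost examples lie 2.54 kb upstream of Il1b (chr2:129373491-129373578, plus strand), in an intron 1.08 kb upstream of a Laptm5 start (chr4:130931507-130931594, minus strand) and 1.81 kb upstream of Spi1 itself (chr2:91080938-91081025, plus strand).
Il1b: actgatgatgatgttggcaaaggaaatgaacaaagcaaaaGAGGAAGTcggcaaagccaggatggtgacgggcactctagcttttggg
Laptm5: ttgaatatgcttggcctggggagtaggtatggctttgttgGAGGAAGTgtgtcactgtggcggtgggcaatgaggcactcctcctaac
Spi1: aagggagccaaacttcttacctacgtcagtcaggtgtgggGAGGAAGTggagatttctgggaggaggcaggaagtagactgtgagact

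Spi1 (ENSMUSG00000002111.8, chromosome 2 from 91082390 to 91115756, plus strand) is the gene that encodes Pu.1. The site nearest its annotated start was lost while sites on both sides of it were gained. Distances here are from that annotated start. The lost site lies 1.81 kb upstream, from 91080001 to 91081150, and holds the Spi1 sequence printed above. Both Daxx-KO libraries were listed at 0 there, and WT 1 and 2 held 77.7 and 111 normalized counts. The same region was lost at 3 w.p.i. in other mice, with 22.8 and 28.4 in Daxx-KO against 58.5 and 73.5 in WT. H3K27ac, a mark of active promoters and enhancers, went the other way at 24 w.p.i. in a broad site that covers both this region and the start, at 15111 and 13801 in Daxx-KO against 8985 and 8601 in WT. A site 3.77 kb upstream was gained, with 68.2 and 35.5 against 0 and 12.6, and it was gained at 3 w.p.i. too, with 41.8 and 102 against 15.7 and 0. Further upstream, at 14.0 kb and in an intron of Slc39a13, Pu.1 was gained with 57.3 and 87.8 in Daxx-KO against 0 and 26.3 in WT. Inside the gene the order was mixed again. A site 9.09 kb into Spi1, which lies 4.62 kb upstream of another Spi1 start, was gained (61.4 and 85.7 against 13.0 and 13.7). One at 26.4 kb was lost (1.36 and 0 against 63.3 and 106), and one at 29.4 kb was gained (74.98 and 37.6 against 4.32 and 13.7). The last but one of these overlaps a site called neither, in which Daxx-KO 1 held 239.9 and Daxx-KO 2 was listed at 0. With 50 kb on either side, 26 sites were listed, of which 12 were gained, 12 lost and 2 neither.

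In Daxx (chromosome 17 from 33909414 to 33915590, plus strand) exons 2 to 7 are floxed. The only listed Pu.1 site in the gene runs from 33912801 to 33913750 and overlaps exons 5 and 6. Both Daxx-KO libraries were listed at 0 there, and WT 1 and 2 held 63.3 and 44.2. Both Daxx-KO libraries were at 0 in 8695 lost sites in all, so this site alone cannot check the labels. H3K27ac over exons 2 to 5 was at 113 and 93.7 in Daxx-KO against 858 and 368 in WT. On both flanks of the deleted exons H3K27ac was higher in Daxx-KO, at 1570 and 1036 against 775 and 581 over exon 1 and at 1875 and 1617 against 712 and 914 over exon 8. H3K27me3 at the start of the gene was at 81.4 and 43.2 in Daxx-KO against 252 and 217 in WT. The neighbouring genes moved in either direction. Pu.1 was gained 10.96 kb beyond the Daxx start at Tapbp, a chaperone of MHC class I loading, with 122 and 81.5 against 0 and 7.37. Tapbp had promoter sites of both directions. The adjoining site, 9.99 kb beyond the Daxx start, was lost, and one at 17.1 kb was gained. Pu.1 was lost at Kifc1, a mitotic kinesin, with 26.6 and 33.4 against 92.1 and 90.5. The Daxx region held 6 gained and 8 lost sites.

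**Figure D1:**
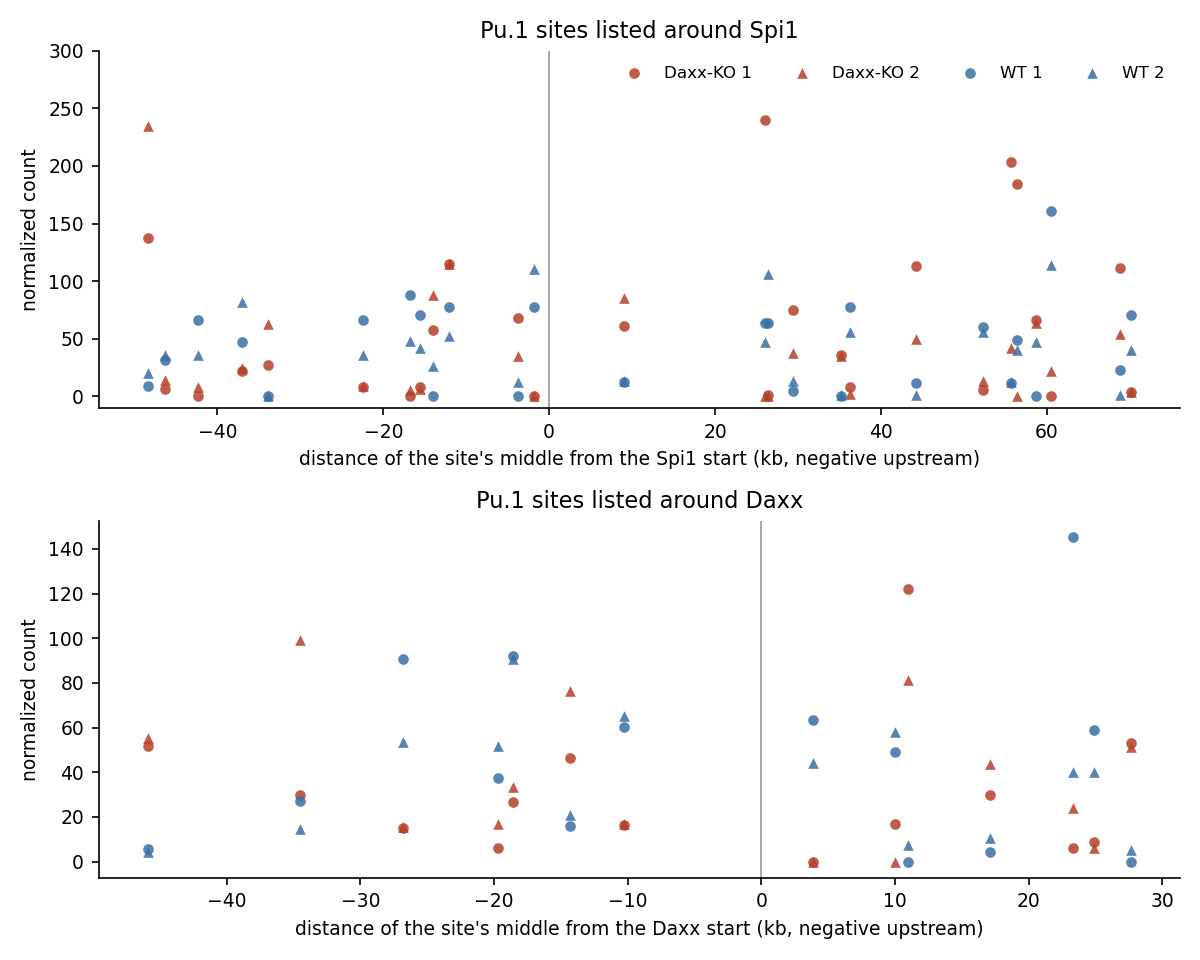
Normalized Pu.1 counts (vertical axis) of each library at the listed sites around Spi1 (top) and Daxx (bottom), against the distance of the site's middle from the gene start in kb (negative upstream). Red marks are Daxx-KO 1 and 2 and blue marks WT 1 and 2. Around both genes sites with red above blue alternate with sites of the opposite order, 12 and 12 of 26 at Spi1 and 6 and 8 of 14 at Daxx.

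Genes of 15 lists were followed through their promoter sites, within 1 kb of a start, and the sites for which they were the nearest protein-coding gene. Over all listed sites 47.8% of those gained or lost were gained, with a median log2 ratio of -1.19 and a median GC content of 46.0%. The lists ran from 35% to 52.4% gained, and most of their genes had sites of both directions. A start is any annotated start of a gene, and distances are to the nearest start, which can lie inside the gene. Nearness does not show that a site acts on a gene. Sites at promoters that are named below beyond those with the largest difference of means in each list were chosen after their values were seen.

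Among myeloid transcription factors and Pu.1 partners, 339 sites were gained and 376 lost, and 26 of 28 genes had both. Irf4, a partner that binds composite sites with Pu.1, lost Pu.1 at 10.3 kb inside the gene, with 5.45 and 29.3 in Daxx-KO against 236 and 177 in WT. Both listed sites at its promoter were lost as well. At the promoter of Egr1, an early-response factor of monocytic commitment, both Daxx-KO libraries were listed at 0, with 128 and 63.2 in WT. Junb, an AP-1 subunit, lost 2 promoter sites, the larger with 15.0 and 4.18 against 129.5 and 92.6. Klf4, a monocyte factor, gained Pu.1 in the gene at 1.95 kb from its start, with 120.0 and 221 against 17.3 and 13.7. The same part of Klf4 was gained at 3 w.p.i. (60.7 and 58.4 against 23.0 and 0), while H3K27ac over it was at 911 and 1208 in Daxx-KO against 4463 and 2955 in WT. The next site at the Klf4 start was lost, with 10.9 and 25.1 against 83.5 and 62.1. Of the 18 genes with a promoter site, 2 had gains alone, 8 losses alone and 8 both. Over all 11786 protein-coding genes with such a site, 3523 had gains alone, 4737 losses alone and 3526 both.

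Myeloid receptors and signalling genes had 185 gained and 168 lost sites, 52.4% gained (Wilson 95% interval 47.2 to 57.6, which covers counting error only). Ncf4, which encodes the p40phox subunit of the phagocyte NADPH oxidase, lost Pu.1 in an intron near a start, with 66.1 and 47.0 against 359.8 and 133. At 3 w.p.i. it was gained there, with 262 and 198 against 63.2 and 41.6. Over Ncf4 H3K27ac was at 4817 and 4568 in Daxx-KO against 2940 and 2709 in WT, opposite to Pu.1. Laptm5, a lysosomal protein of blood cells, lost the site with the sequence printed above, at 8.86 and 4.18 against 232 and 92.6. It gained another site 44.2 kb upstream of a different Laptm5 start, at 211 and 237 against 94.99 and 16.8. The promoter of Csf3r, the G-CSF receptor, was lost (3.41 and 8.36 against 40.3 and 73.7). The promoter of Fpr2, a formyl peptide receptor of phagocytes, was gained, with 85.9 and 109 in Daxx-KO and both WT libraries listed at 0.

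Neutrophil granule and maturation genes had 59 gained and 88 lost sites, 40.1% gained (32.6 to 48.2). Cebpe, the factor of terminal granulocyte maturation, lost Pu.1 25.4 kb upstream, with 0 and 5.22 against 96.4 and 112. Both promoter sites of Cebpe were lost too, with 4.09 and 2.09 against 46.1 and 67.4 at the larger. Elane, neutrophil elastase, gained Pu.1 at its promoter, with 109 and 79.4 against 5.76 and 10.5. Cxcr4, the receptor that retains neutrophils and stem cells in marrow, had its largest loss 225 kb from the gene, with 1.36 and 14.6 against 187 and 154, and that site was lost at 3 w.p.i. too (18.1 and 22.7 against 51.7 and 70.3).

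Lymphoid genes were close to all sites in direction, with 297 gained and 310 lost for B-lineage genes and 262 gained and 298 lost for T and NK genes. Pou2af1, a B-cell coactivator, lost a promoter site in an intron, with 8.18 and 12.5 against 151 and 175. It gained a site 15.4 kb upstream of another start, with 315 and 142 against 0 and 36.8. Ciita, the activator of MHC class II genes, gained Pu.1 at a promoter, with 102 and 121 against 8.64 and 18.95. Runx3, a factor of T and NK cells, gained Pu.1 at 3.04 kb, with 195 and 240.3 against 8.64 and 31.6, and it was gained there at 3 w.p.i. too (273 and 181 against 99.8 and 70.3). Further into the gene, at 9.64 kb, Runx3 lost Pu.1, with 39.5 and 28.2 against 245 and 162. Cd2, an adhesion receptor of T and NK cells, gained Pu.1 in an intron near a start, with 251 and 144 against 43.2 and 42.1. At Cd2 the other readouts went down, namely Pu.1 at 3 w.p.i. (40.2 and 69.7 against 119 and 102) and H3K27ac at 24 w.p.i. (82.4 and 87.8 against 248 and 295).

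Stem cell regulators had 342 gained and 488 lost sites, 41.2% gained (37.9 to 44.6), with a median log2 ratio of -1.80 and a median GC content of 46.9%. Of their 17 genes with a promoter site, 3 had gains alone, 10 losses alone and 4 both, beside 3523, 4737 and 3526 of all 11786 genes. Gata2, which maintains stem cells, had 3 promoter sites and all were lost, the largest with 15.0 and 14.6 against 109 and 89.5. The homeobox gene Hoxa9 lost its promoter site, with 4.77 and 10.5 against 60.5 and 44.2, and Hoxa10 lost both of its own, with 1.36 and 30.3 against 124 and 71.6 at the larger. Hlf, a stem cell factor, lost both too, with 0 and 42.8 against 72.0 and 73.7 at the larger. Msi2, an RNA-binding protein of stem cells, lost Pu.1 in an intron, with 22.5 and 9.40 against 167 and 234. Kit, the receptor used to sort these cells, went the other way at its promoter, where both sites were gained, the larger with 54.5 and 48.1 against 21.6 and 13.7. Ikzf2 was gained in an intron, with 282 and 125 against 20.2 and 2.11.

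Erythroid and megakaryocyte genes had 138 gained and 188 lost sites, 42.3% gained (37.1 to 47.8). Zfpm1, the GATA1 cofactor FOG1, gained Pu.1 in an intron just upstream of a start, with 245 and 263 against 23.0 and 49.5. At 3 w.p.i. it was gained there too, with 148 and 118 against 48.1 and 83.1. Zfpm1 lost Pu.1 in an intron 11.5 kb upstream of another start, with 25.2 and 58.5 against 214 and 183. The 3-week direction there was a gain (206 and 182 against 122 and 115). Itga2b, the platelet integrin CD41, gained Pu.1 5.35 kb upstream, with 207 and 169 against 37.4 and 37.9. Genes of mast cells, basophils and eosinophils had 50 gained and 84 lost sites, 37.3% gained (29.6 to 45.7). Il4 and Il13, neighbouring type 2 cytokine genes, both had lost sites. At Il4 both Daxx-KO libraries were listed at 0, with 135 and 45.3 in WT, and near Il13 they held 13.6 and 12.5 against 294 and 133. Mitf, the mast cell and melanocyte factor, lost a site in an intron with both Daxx-KO libraries listed at 0 and 145 and 65.3 in WT. In another intron Mitf gained Pu.1, with 398 and 83.6 against 66.2 and 14.7. Gains were also listed near Cpa3, a mast cell protease, with 111.8 and 219 against 1.44 and 48.4, and near Tph1, which makes serotonin in mast cells, with 167 and 163 against 11.5 and 50.5.

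Interferon and nucleic acid sensing genes had 102 gained and 107 lost sites, and inflammatory cytokine and inflammasome genes 90 and 98. Il1b lost the site printed above, with 4.09 and 1.04 against 112 and 137, and there H3K27ac was lost as well (199 and 198 against 288 and 306). Csf1, the macrophage growth factor, lost Pu.1 close to its start, with 38.2 and 1.04 against 268 and 95.8. Csf2, which encodes GM-CSF, gained it at its promoter (112 and 117 against 48.9 and 22.1) and 41.9 kb away (230.4 and 216 against 10.1 and 18.95). Irf9, a subunit of the interferon-activated complex ISGF3, lost Pu.1 at its start with 21.8 and 52.2 against 216 and 82.1, and Irf7 with 24.5 and 12.5 against 104 and 80.0. Irf2 gained Pu.1 at 2 promoters, the larger with 110.4 and 111 against 10.1 and 3.16.

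Mx1 had the largest gain of the interferon list, at 668 bp upstream of its start, with 353 and 229 in Daxx-KO against 69.1 and 109 in WT. At its start it was lost, with 31.4 and 9.40 against 111 and 81.0. Beside the H3K27me3 values above, H3.3 at the gained site was at 383 and 286 in Daxx-KO, 24.0 in WT 1 and 219 in WT 2. H3K9me3 there was at 93.7 and 231 in Daxx-KO, 6.22 in WT 1 and 44.98 in WT 2. At 3 w.p.i., in other mice, Pu.1 just upstream was at 187 and 157 in Daxx-KO, 55.9 in WT 1 and 406 in WT 2. At the gained site and just upstream of it the WT library with the number 1 was the lowest in these readouts, but at the lost site at the start WT 1 was the highest. The genotype of Daxx cannot be told apart there from differences between single mice.

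Genes of H3.3 deposition and silencing had 112 gained and 106 lost sites, 51.4% gained (44.8 to 57.9). Hira, the chaperone that places H3.3 in active chromatin, gained Pu.1 in an intron, with 140.4 and 238 against 13.0 and 69.5. Cabin1, a partner of Hira, lost it in an intron, with 12.3 and 8.36 against 216 and 97.9. Cbx3, which encodes heterochromatin protein HP1γ and shares its promoter region with Hnrnpa2b1, lost it with 31.4 and 12.5 against 155 and 154. H3K27ac over that promoter was at 5977 and 5755 in Daxx-KO against 4140 and 2677 in WT. The promoter of H3f3a, one of the genes of H3.3, was lost, with 1.36 and 8.36 against 40.3 and 45.3. Dnmt3a, a DNA methyltransferase that is often mutated in clonal haematopoiesis, had sites of both directions, among them a gain 2.82 kb from a start (296 and 147 against 72.0 and 58.9) and a loss at 12.6 kb (31.4 and 65.8 against 207 and 171).

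Cell cycle and growth control genes had 298 gained and 331 lost sites. Ccnd2, the D-type cyclin of haematopoietic progenitors, lost Pu.1 at its start, with 2.73 and 2.09 in Daxx-KO against 202 and 195 in WT. H3K27ac over the same promoter was at 528 and 502 in Daxx-KO against 139 and 218 in WT, opposite to Pu.1. The related cyclin gene Ccnd3 gained Pu.1 at a promoter, with 79.8 and 159.9 against 23.0 and 18.95. Cdk4, the kinase that D-type cyclins activate, gained it as well, with 155 and 181 against 0 and 29.5. Inhibitors of the cycle also differed. Cdkn1c, a quiescence factor of stem cells, lost Pu.1 at its start, with 7.50 and 0 against 138 and 246, whereas both promoter sites of Cdkn1a were gained, with 62.0 and 129.6 against 0 and 6.32 at the larger.

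The gluconeogenesis genes Fbp1 and Fbp2, which lie side by side on chromosome 13 and were named in the study, had 7 gained and 13 lost sites. Fbp1 lost Pu.1 at its promoter, with 6.13 and 1.04 against 48.9 and 36.8. It also lost a site 3.94 kb upstream of its nearest start, with 0 and 6.27 against 72.0 and 72.6, and this site was lost at 3 w.p.i. too (11.03 and 10.5 against 47.5 and 35.2). A site 6.64 kb upstream was gained, with 211 and 29.3 against 10.1 and 0. For comparison, 46.5% of the sites of stromal and endothelial genes were gained (185 and 213 lost), and 49.0% of those of genes of other tissues (215 and 224 lost). At Nkx2-5, a heart gene, a site was gained with 248 and 240.3 against 37.4 and 109, and at the start of Myh7, a myosin of heart and muscle, one was lost with 39.5 and 6.27 against 184 and 174. Sites near genes of other tissues were therefore split between the directions as well.

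**Figure D2:**
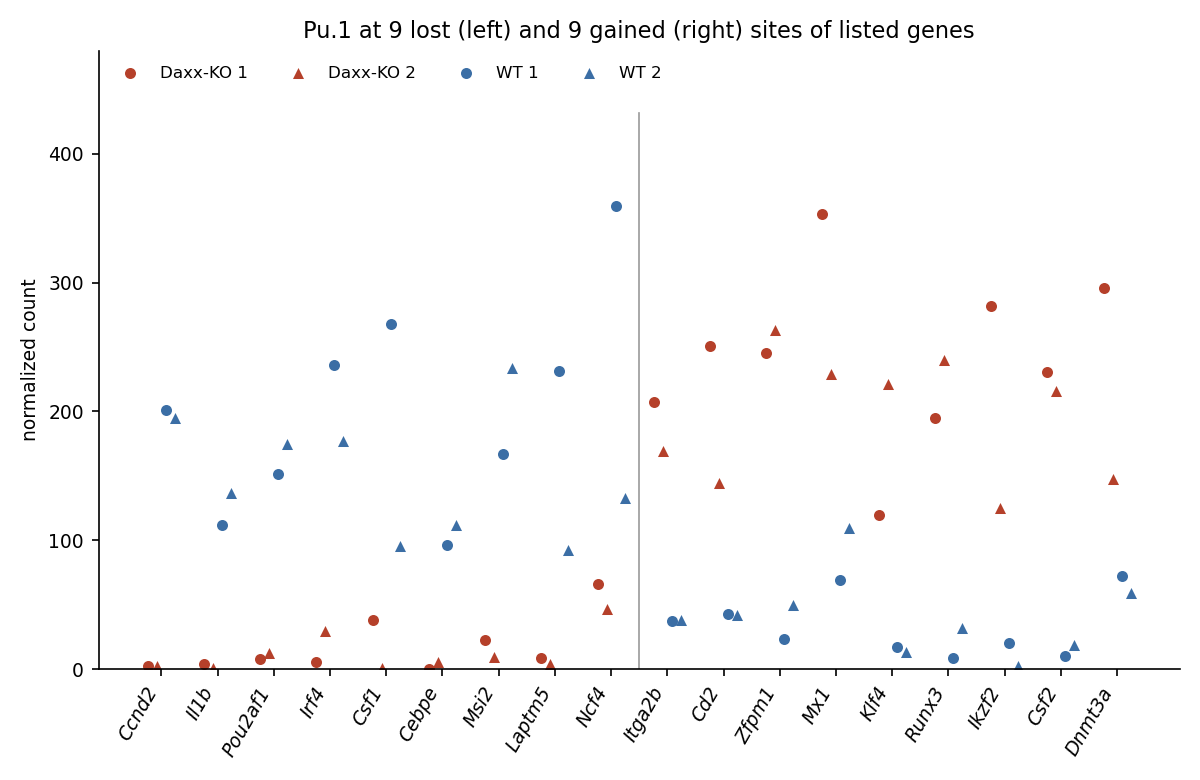
Normalized Pu.1 counts (vertical axis) in the 4 libraries at 9 lost sites (left of the line) and 9 gained sites (right) of listed genes, named on the horizontal axis. Red marks are Daxx-KO, blue marks WT, circles replicate 1 and triangles replicate 2. At lost sites such as Ccnd2 both Daxx-KO libraries are near 0 and both WT libraries near 200, and at gained sites such as Zfpm1 the order is the opposite.

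**Figure D3:**
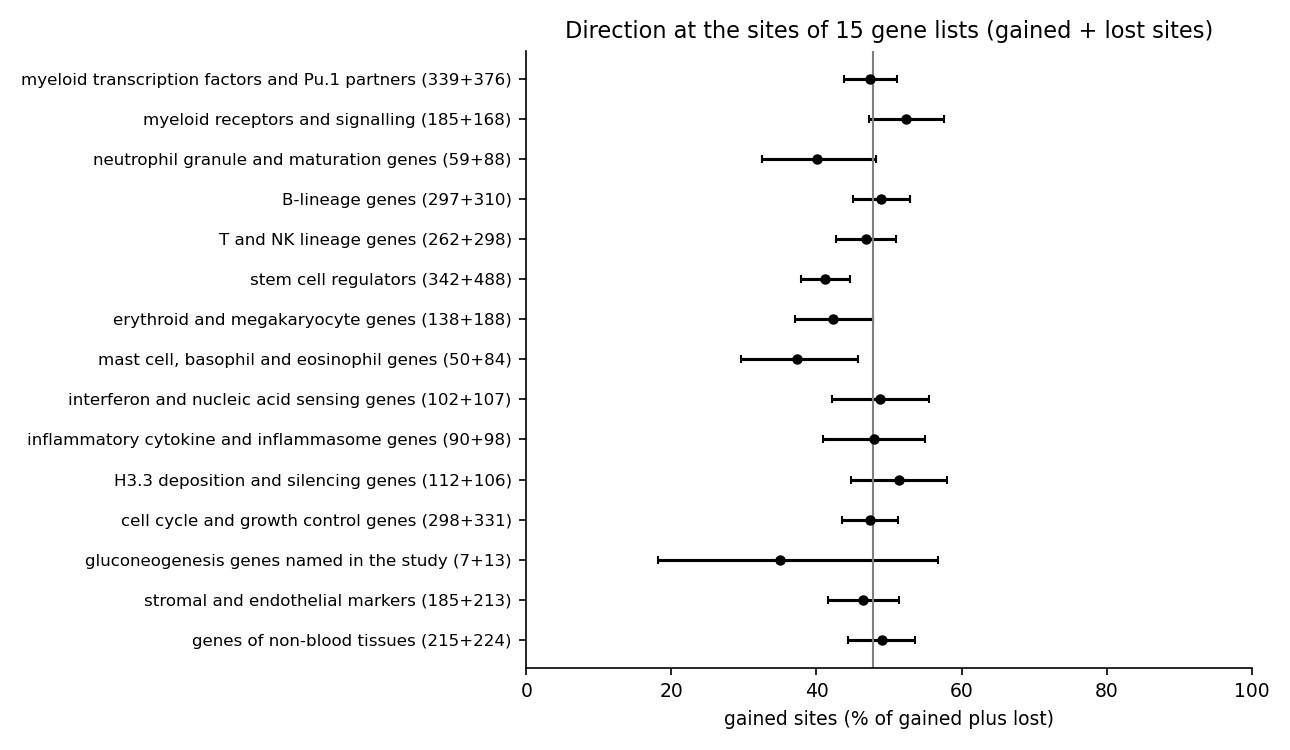
Gained sites as a percent of gained plus lost sites (horizontal axis) for the 15 gene lists, with Wilson 95% intervals over sites, which cover counting error only. The numbers in brackets are gained and lost sites and the grey line is all listed sites, 47.8%. The stem cell (41.2%), erythroid (42.3%) and mast cell (37.3%) lists have intervals below the line, and no list has an interval above it. The erythroid interval all but reaches the line, with an upper end of 47.75% against 47.78%.

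The sites with the largest gap between the groups over the whole table included ribosomal RNA sequence and pseudogenes, beside sites in protein-coding genes. The largest loss covers ribosomal RNA sequence on chromosome 17 (39842601 to 39849350, with CT010467.1 and AY036118), at 7040 and 7743 in Daxx-KO against 14989 and 14270 in WT. The largest gain covers pseudogenes on chromosome 1 (24611001 to 24616700, Gm28439 to Gm28661), at 8064 and 20752 against 3500 and 1895. It was not particular to Pu.1. H3.3 there was at 10071 and 29575 against 3557 and 3754, and H3K9me3 at 9691 and 29303 against 4489 and 3643. H3K27ac and H3K27me3 there were lost. Where a sequence has near-identical copies, its reads cannot be placed with certainty. Other leading sites lay at promoters of protein-coding genes. Phrf1, a ubiquitin ligase, gained Pu.1 at a promoter with 297 and 276 against 17.3 and 8.42, and it was gained at 3 w.p.i. too (117 and 115 against 40.7 and 22.4). At Megf6 the gained site (678 and 330.2 against 72.0 and 82.1) is the one printed above, and at Galnt1 both Daxx-KO libraries held 245 and 244 against 28.8 and 2.11. Among losses, Smco4, a small membrane protein, was at 32.7 and 67.9 against 481 and 395. Hjurp, the chaperone that loads the centromeric histone CENP-A, was at 232 and 246 against 619 and 494. Sites at 200 or more in both libraries of the higher group numbered 362 among gains and 301 among losses.

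Promoters were a little less often among gains than among losses. Of gained sites 11.3% (11.1 to 11.5) lay within 1 kb of a start, and of lost sites 12.5% (12.3 to 12.7). Put the other way, 45.2% of promoter sites and 48.1% of the rest were gained, a difference of -2.88 percentage points (-3.48 to -2.28). This order turned when sites of equal GC content were compared, to 1.29 points in the other direction. Of 20780 autosomal protein-coding genes, 11786 had a gained or lost promoter site.

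Direction moved with the base composition of the site. In sites of up to 36% GC, 73.3% were gained, and the share went down to 52.9% at 40 to 44% GC and to 37.6% at 56 to 60%. In the lowest bin the medians were 36.8 and 37.6 in Daxx-KO against 2.88 and 6.32 in WT. At 56 to 60% GC they were 25.9 and 27.2 in Daxx-KO against 46.1 and 46.3 in WT. The medians of the genotypes crossed at about 40 to 44% GC. Sites were listed for a difference between the genotypes, so likeness of the 2 libraries of a genotype here is no separate result. Whether the change of direction with GC content comes from the cells or from the libraries was not tested. The 2 cannot be told apart with 2 libraries per genotype. The share gained also moved with level, from 41.0% where the higher group averaged 40 to 60 to 60.5% at 100 to 200.

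**Figure D4:**
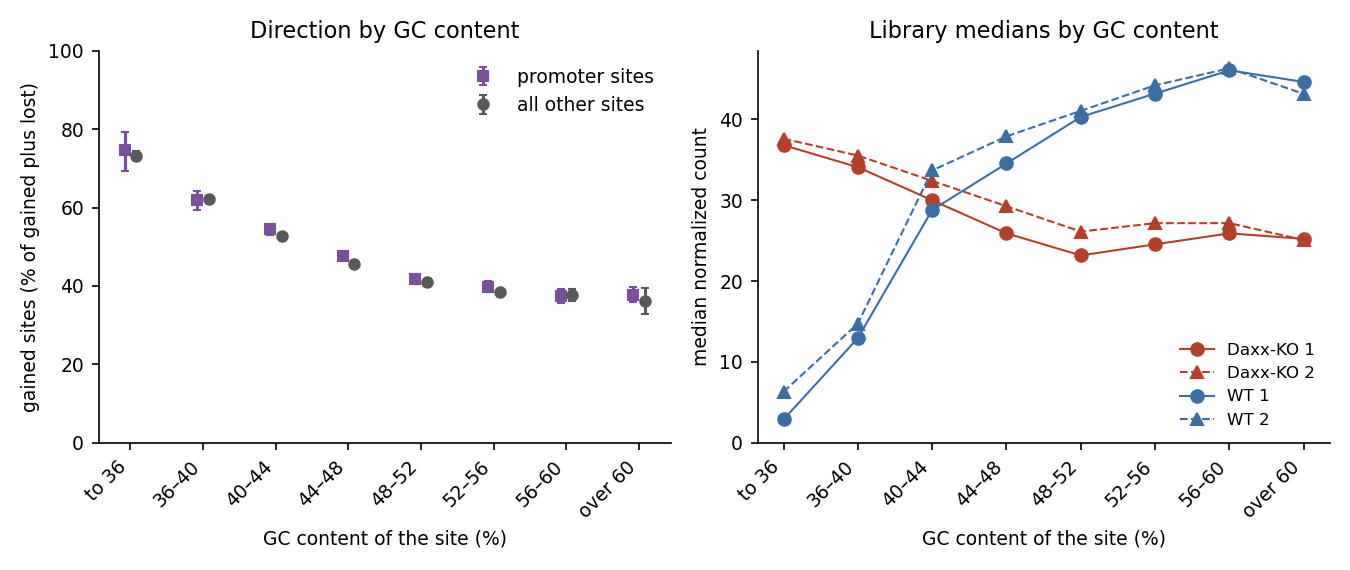
Left, gained sites as a percent of gained plus lost sites (vertical axis) by GC content of the site in percent (horizontal axis), for promoter sites (purple) and all other sites (grey), with Wilson 95% intervals over sites. Right, median normalized count of each library over all listed sites in the same GC bins. The share gained goes from 73.3% to 37.4% over all sites, and the Daxx-KO and WT medians cross.

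Gains and losses were interleaved over all autosomes. The share gained ran from 46.0% on chromosome 9 to 51.4% on chromosome 10. Of 2398 windows of 1 Mb with at least 20 gained or lost sites, all held both directions, with a median of 49.6% gained and quartiles of 44.7% and 56.6%. The highest share was 35 of 40 sites (87.5%) on chromosome 1 from 99000001 to 100000000, where Cntnap5b, a neuronal adhesion gene, is the only protein-coding gene. Other windows at the upper end held no protein-coding gene, a single one or a cluster. There was none on chromosome 6 from 74000001 to 75000000 (31 gained and 6 lost), and Grm7, a glutamate receptor gene, alone from 110000001 to 111000000 (20 and 5). Clusters were the bitter taste receptors on the same chromosome from 132000001 to 133000000 (20 and 4) and the prolactin family on chromosome 13 from 27000001 to 28000000 (31 and 7). The lowest share was 20 of 78 (25.6%) on chromosome 9 from 25000001 to 26000000, with Herpud2, Sept7 and Eepd1. A window on chromosome 12 from 26000001 to 27000000 with the interferon-induced genes Rsad2 and Cmpk2 had 37 gained and 80 lost, and one on chromosome 15 from 74000001 to 75000000 with Ly6d and Psca had 85 and 180. Over the windows the share gained went with the median GC content (Spearman -0.68, Pearson -0.64, n = 2398, a description over windows that share the same libraries). Neighbouring sites 1 to 5 kb apart had the same direction in 51.7% of pairs, and 50.1% would follow from the overall shares. Pairs under 200 bp apart had the same direction in 41.1%, where adjoining windows of 1 direction had been merged into single sites.

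Directions at 24 w.p.i. were compared with Pu.1 at 3 w.p.i., which was measured in other mice. There 55.3% of the 161128 listed sites were gained and 42.8% lost. Of the 24-week gains, 20491 (17.2%) met a 3-week site of 1 direction, and 57.3% of these were gained at 3 weeks (56.6 to 58.0). Of the 24-week losses, 28156 (21.6%) met one, and 59.2% of these were gained at 3 weeks (58.6 to 59.7), so that 40.8% had been lost at both times. Among all changed 3-week sites 56.4% were gained. The 3-week libraries had 11.4 and 11.99 reads per window in Daxx-KO but 33.8 and 2.75 in WT. At promoters 75.4% of the gained and 76.3% of the lost 24-week sites were gained at 3 weeks. The share over all 3-week promoter sites was not computed. Among the 86 sites named by gene list, 27 met a 3-week site of 1 direction and 11 had the same direction.

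The chromatin marks were measured in the same mice in separate libraries. H3.3 had 51.3% of its listed sites gained and 47% lost, H3K27ac 41.3% and 56%, H3K9me3 46.9% and 50.3% and H3K27me3 40.8% and 56.8%. H3K27ac was gained at 42.2% of the gained Pu.1 sites that met a changed H3K27ac site of 1 direction (41.6 to 42.9), and at 43.3% of the lost ones (42.8 to 43.9). H3.3 was gained at 51.3% and 50.1% and H3K27me3 at 39.0% and 39.6%. For these marks the share was within 3 percentage points of that over all changed sites of the mark, which was 42.5% for H3K27ac, 52.2% for H3.3 and 41.8% for H3K27me3. H3K9me3, the mark of constitutive heterochromatin, was gained at 55.6% of gained and 59.2% of lost Pu.1 sites, both above the 48.2% over all changed H3K9me3 sites. At Pu.1 promoter sites the shares of H3K9me3, H3K27ac and H3K27me3 lay further from those of all changed sites. There H3K9me3 was gained at 65.1% and 67.7%, H3K27ac at 51.1% and 52.7% and H3K27me3 at 31.5% and 29.4% of gained and lost Pu.1 sites. The share over all promoter sites of each mark was not computed. Pu.1 promoter sites can therefore not be told apart here from promoters at large. Gained and lost Pu.1 sites thus differed in the share of gains by under 4 percentage points in each of the other tables.

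**Figure D5:**
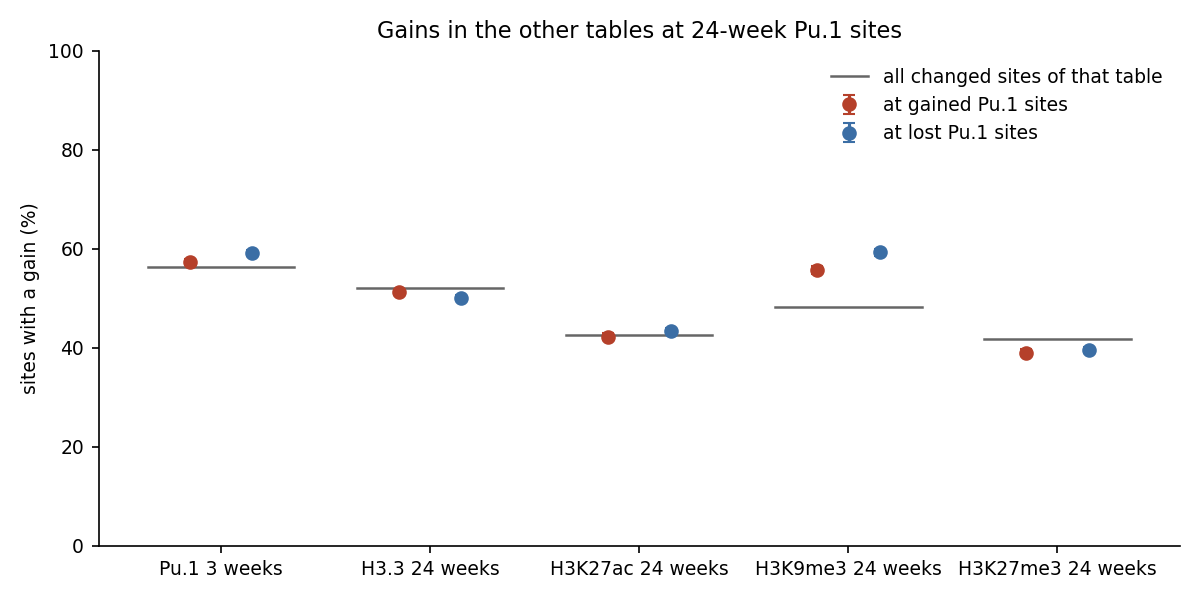
Sites with a gain in another table, as a percent of sites that met a changed site of 1 direction there (vertical axis), at gained Pu.1 sites (red) and lost Pu.1 sites (blue) of 24 w.p.i., with Wilson 95% intervals over sites, mostly smaller than the points. Grey lines are all changed sites of each table. The red and blue points lie within 4 percentage points of each other in all 5 tables, and both lie above the line for H3K9me3.

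The Pu.1 word GAGGAAGT, searched on both strands in the 300 bp around the middle of a site, was about as common in gains as in losses. It lay in 2.05% of gained sites (1.97 to 2.13) and in 2.14% of lost sites (2.06 to 2.22), against 1.81% of all 300-bp tiles of the autosomes and 3.20% of RefSeq promoter sequences. The shorter GAGGAA, which lies inside it, was in 26.3% and 26.7%, against 25.97% of tiles and 28.3% of promoters. Among the strongest sites, with both libraries of the higher group at 200 or more, 3 of 362 gains and 3 of 301 losses held GAGGAAGT. CCGGAAGT, a word of other ETS factors with the same GGAA core, was in 0.271% of gains and 0.337% of losses, against 0.189% of tiles and 3.89% of promoters. The RUNX word TGTGGT was in 22.5% and 22.9% (tiles 20.2%, promoters 16.8%), and the AP-1 word TGANTCA in 8.83% and 8.62% (tiles 8.88%, promoters 7.81%). The GATA word AGATAA was in 15.3% of gains and 13.6% of losses, against 19.1% of tiles and 11.2% of promoters. A match is only a description of the letters in the window.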

How the data were processed

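CUT&Tag with an antibody to Pu.1 was done by the authors on HSPCs. According to the submitters' processing notes, CASAVA 1.8.4, cutadapt 1.13, STAR 2.5.3 and bedtools were used with mm10. Reads on chromosomes X and Y were left out. Per the file headers, diffReps 1.55.6 was run with windows of 600 bp, steps of 50 bp, fragments of 100 bp and a p cutoff of 0.0001. The signal deposited by the authors is the normalized count of each library in each listed site. Columns with the authors' direction, fold change and p-values were not used.

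Each site was called by comparing the 4 libraries, with no fitted test. Log2 ratios of group means had a pseudocount of 1. Starts were from GENCODE M21 and promoter sequences from RefSeq (GRCm38.p6). Sites of 2 tables met when they shared 1 bp. Functions were tested on simulated data. Python 3.11.15, numpy 2.4.6, pandas 2.3.3 and scipy 1.17.1 were used.

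A first set of genes was named by rule. It held Spi1 and Daxx and up to 3 genes per list and direction with the largest difference of means. It also held the 6 sites per direction with the largest gap and the windows of 1 Mb at both ends. Further promoter sites of listed genes were named after their values were seen. Some genes of the lists are not reported here. Members and lists were chosen with earlier results of these data known. The labels do not say more about the replicates than the mouse numbers.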

Additional observations from a re-analysis of the deposited data

How the results depend on the processing

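Over 32 results 222 alternatives were run. Of these, 186 moved the value by less than its interval or count limit, 34 by more, and 2 turned the direction. The 186 include alternatives that could hardly have moved a value, so the number does not measure robustness. Leaving out a 24-week library can only add gains or losses, from the 4447 sites called neither. The difference between promoters and other sites became 1.29 and 1.34 percentage points in GC bins of 2 and 1 points, and -5.72 at a level of at least 100. That level, leaving out 3-week libraries, and leaving out 24-week libraries for this difference, the 3-week, mark and motif shares and the gene lists were chosen after seeing the data. At that level 20430 gains and 13304 losses were left, with promoter shares of 14.0% and 17.1%. Promoter shares of gains and losses were 6.18% and 7.28% within 250 bp, 22.4% and 23.7% within 3 kb and 7.51% and 8.61% for protein-coding starts. Of gains, 56.4% had the same direction at 3 weeks within 1 kb and 58.8% at the higher level. Of losses, 40.1% did with an overlap of 50%, 42.3% within 1 kb, between 40.4% and 41.5% with a 3-week WT library left out (replicates 2 and 1) and 36.3% at the higher level. At the higher level H3.3 was gained at 49.5% and 48.4% of gained and lost sites, H3K9me3 at 60.4% and 64.6% and H3K27me3 at 36.3% and 36.7%. With an overlap of 50%, H3.3 was gained at 50.6% of gains, H3K27ac at 43.9% and H3K27me3 at 38.3% of losses. Within 1 kb, H3.3 was gained at 50.6% of losses and H3K27ac at 40.9% of gains and 42.1% of losses. GAGGAAGT lay in 5.58% of gains and 5.94% of losses over whole sites. These shares cannot be set against that of 300-bp tiles, because the sites were longer, with a median of 800 bp. GAGGAA in the 300 bp around the middle lay in 26.3% and 26.7%. Within 50 kb, 44.2% of sites of genes of other tissues were gained. The cause of these moves was not tested. No paired analysis was possible because no result comes from a test, and the labels give each same-numbered Daxx-KO and WT library a different mouse. The minimum level of 20 removed no site, so its alternatives left every value unchanged. Depth is known as reads per window alone, and low values rest on few reads.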

Other observations

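Sites with the largest gap and a low level in the other group included genes of the nervous system and other tissues. Near Nkx1-1 (chromosome 5 from 33479851 to 33481650) Pu.1 was at 347 and 290.4 in Daxx-KO against 8.64 and 2.11 in WT. In Slc6a3, the dopamine transporter gene, it was at 337 and 316 against 72.0 and 68.4, and in Capn9, a calpain of the digestive tract, at 285 and 249 against 5.76 and 4.21. Among losses, Glis1, a zinc finger factor, was at 43.6 and 54.3 in Daxx-KO against 347 and 335 in WT. Kcnk3, a potassium channel gene, was at 75.7 and 62.7 against 366 and 320.0, and Sorcs2, a sorting receptor of neurons, at 35.4 and 14.6 against 325 and 312.

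Markers of cell types had listed sites of both directions. The 5 HSPC markers had 107 gained and 127 lost sites, 8 of 9 neutrophil markers 13 and 24, 4 of 5 monocyte and macrophage markers 10 and 6, and 4 of 5 B-cell markers 71 and 77. The 4 T-cell markers had 11 and 5, 3 of 4 erythroid markers 16 and 15, and the 3 stromal markers 87 and 91. No gained or lost site was listed for Ctsg, Cd14, Cd79a and Klf1. The table lists differing sites only, so the share of each cell type cannot be read from it.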
